A study of Mus musculus with 6 samples.

Results

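The nuclear genes of respiratory complex I and of its assembly were examined in 2 stable lines of RAW264.7, a mouse macrophage-like cell line. Members were taken by gene symbol (Ndufa, Ndufb, Ndufc, Ndufs, Ndufv and Ndufaf) and kept at a mean of at least 10 normalized reads over the 6 libraries, where a normalized read is 1 read per 10000000 reads counted on genes. Of 49 such symbols among the 23154 genes of the table, 45 were kept, and they are 45 of the 11201 genes that passed this filter and were tested. They comprise 7 core subunits, 29 accessory subunits, 8 assembly factors and Ndufa4, which carries a complex I symbol although its product is now counted as a subunit of complex IV. The lowest gene kept was Ndufaf8, with a mean of 45.2 normalized reads. The 4 genes not kept were Ndufa4l2, with a mean of 2.28, and the processed pseudogenes Ndufa11b, Ndufab1-ps and Ndufs6b, with means of 0, 0.116 and 0.225.

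The NUR77 line carried the pINDUCER20b construct for HA-tagged NUR77, the orphan nuclear receptor encoded by Nr4a1, and the GFP line carried a doxycycline-inducible GFP construct. Both lines received doxycycline at 1 µg/mL for 18 hours, begun 24 hours after seeding, and 3 dishes of each were sequenced as polyadenylated RNA. Each group is 1 stable line and both were induced, so the transgene and other differences between the lines cannot be told apart. The title of the series places the comparison in macrophage mitochondrial metabolism and inflammation.

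Depth was 11199468 to 14354453 reads per NUR77 library and 14350490 to 15929487 reads per GFP library. Nr4a1 itself had 288, 314 and 297 normalized reads in NUR77 libraries, against 170, 148 and 161 in GFP libraries, without a separation of transgene and endogenous reads. The 8 macrophage markers, which include Ptprc, Csf1r and Cd68, were read in every library and summed to 27491 to 29375 normalized reads in NUR77 libraries and 60274 to 61661 in GFP libraries. Of the 8, 5 fell (Lyz2 most, with a log2 fold change of -3.39), Itgam rose (1.18), and Ptprc (0.03) and Spi1 (0.09) were not called. The 4 T cell markers and the 4 epithelial markers each summed to at most 0.893 normalized reads in any library. Among them Cd3e, Cd3d, Cd3g, Krt8 and Cdh1 had no read. The 4 B cell markers summed to 12.5 to 29.96 normalized reads in NUR77 libraries and 2.09 to 3.27 in GFP libraries, mostly from Cd79b in NUR77 libraries, while Ms4a1 had no read. The 3 endothelial markers summed to 26.8 to 32.0 in NUR77 libraries, mostly from Pecam1, and to 3.14 to 3.92 in GFP libraries. NUR77 replicate 1 stood apart in muscle and fibroblast transcripts. It was the highest library for 11 of 16 skeletal muscle markers (Acta1 had 51.8 normalized reads there, 12.5 and 8.75 in the other NUR77 libraries, and 7.53 to 9.76 in GFP libraries). The sum of the 16 markers, in contrast, was 386 in that library, 162 and 162 in the other NUR77 libraries and 443 to 500.3 in GFP libraries, where Tnni2 (58.5 to 96.4 in NUR77 libraries and 336 to 385 in GFP libraries) made up most of it. The 4 fibroblast markers summed to 83.9 in that library, 23.7 and 14.3 in the other NUR77 libraries and 17.0 to 20.2 in GFP libraries. The part of these marker levels in the results below was not tested. Without that library, 7 members rose and 14 fell, of which 6 rises and 12 falls were also called with all 6 libraries.

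Complex I is the entry point of NADH into the respiratory chain. Its matrix arm holds an N module, which oxidizes NADH at a flavin, and a Q module, which passes the electrons through iron-sulfur clusters to ubiquinone, and its membrane arm pumps protons. Core subunits carry out this chemistry and are shared with bacteria, accessory subunits surround and stabilize the core, and assembly factors build or modify intermediates without staying in the finished enzyme. The hydrophobic core subunits of the membrane arm are encoded in mitochondrial DNA. In macrophages, complex I activity and its production of reactive oxygen species are known to change with inflammatory activation.

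Transcript levels of nuclear complex I genes differed modestly between the lines, with the largest falls in Ndufb5 (0.582-fold, NUR77 over GFP) and Ndufs8 (0.673-fold) and the largest rise in Ndufaf5 (1.45-fold). Of the 45 members, 7 rose and 14 fell in NUR77 cells in limma at a Benjamini-Hochberg adjusted p of 0.05 over all tested genes, and 24 were not called. This is 46.7% of members called, against 66.7% of all tested genes. The rises made up 15.6% of members against 38.4% of all tested genes, and the falls made up 31.1% against 28.3%. For 24 members (53.3%) the groups did not overlap, against 70.6% of all tested genes. No member differed by 2-fold or more, whereas 1557 of all tested genes (13.9%) did. The median absolute log2 fold change was 0.14 over members and 0.31 over all tested genes, and the signed medians were -0.05 and 0.06.

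By class, 1 of 7 core subunits rose and 1 fell, 2 of 29 accessory subunits rose and 11 fell, and 4 of 8 assembly factors rose and 1 fell. Calls thus made up 28.6% of core subunits, 44.8% of accessory subunits and 62.5% of assembly factors, against 66.7% of all tested genes. Summed over genes, the accessory subunits held 13986, 14333 and 14062 normalized reads in NUR77 libraries and 15389, 14952 and 15678 in GFP libraries, a ratio of means of 0.921. The core subunits summed to 7540, 7814 and 7731 in NUR77 libraries and to 7589, 7708 and 7458 in GFP libraries, a ratio of 1.01. The assembly factors summed to 1580, 1631 and 1640 in NUR77 libraries and to 1408, 1433 and 1369 in GFP libraries, a ratio of 1.15. The summed accessory level was thus lower in every NUR77 library and the summed assembly level higher, while the summed core level overlapped. Since these are shares of the RNA of whole dishes, fewer cells with a transcript and less of it per cell cannot be told apart. The split of calls moved with the scaling: TMM, median-of-ratios and upper-quartile scaling each gave 5 rises and 19 falls, so that rises were 20.8% of called members instead of 33.3%. The 5 falls gained there were Ndufa8, Ndufa9, Ndufb6, Ndufb9 and Ndufc2, and the rises lost were Ndufaf1 and Ndufaf7.

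**Figure D1:**
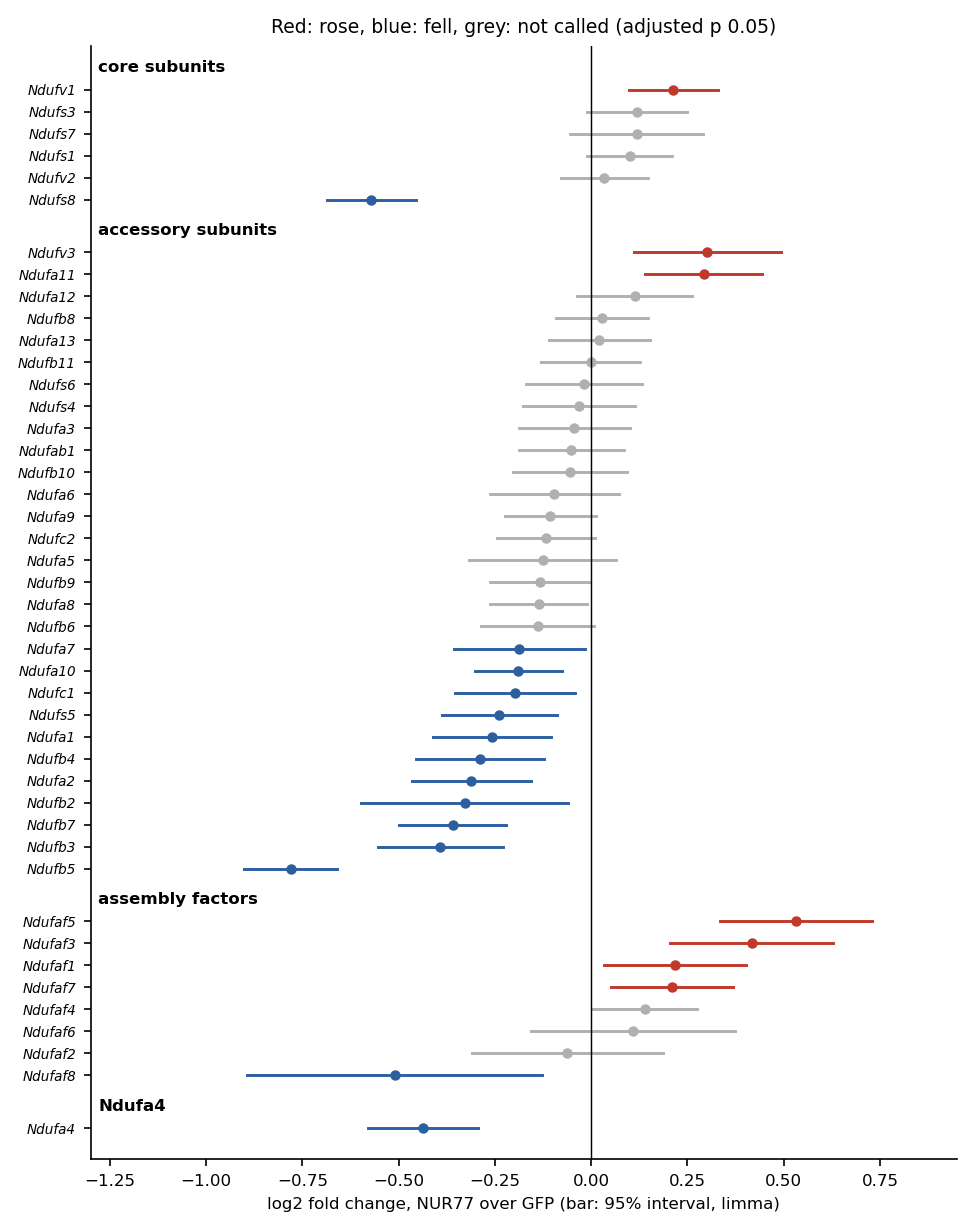
Log2 fold change (NUR77 over GFP, horizontal axis) of 44 of the 45 members by class, with points for the estimate and bars for the 95% interval from limma. Red points rose, blue points fell and grey points were not called at an adjusted p of 0.05, and Ndufb5 lies lowest at -0.78 and Ndufaf5 highest at 0.53.

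Among the core subunits, Ndufs8 stood lower in NUR77 cells and Ndufv1 higher, and the other 5 were not called. Ndufs8 (ENSMUSG00000059734), which carries iron-sulfur clusters of the Q module on the way to ubiquinone, had 608, 569 and 583 normalized reads in NUR77 libraries, against 867, 865 and 883 in GFP libraries. The groups were far apart, at 587 ± 19.7 in NUR77 cells and 872 ± 9.88 in GFP cells (SD, n = 3 each), with a log2 fold change of -0.57 (SE 0.06, limma adjusted p = 9.5e-08). The gene lies on chromosome 19, 3908863 to 3912774, minus strand (GRCm38). Ndufv1, the flavin-binding subunit that takes electrons from NADH, lies on the same chromosome, 4007384 to 4012806, 94.6 kb further on. It had 1206, 1312 and 1317 normalized reads in NUR77 libraries, against 1132, 1107 and 1067 in GFP libraries. Every NUR77 library was above every GFP library, and the log2 fold change was 0.21 (SE 0.05, limma adjusted p = 0.0025). These core genes of the same chromosome thus moved in opposite directions.

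The uncalled core subunits had log2 fold changes of at most 0.12. Ndufv2, an iron-sulfur partner of Ndufv1, had 999, 988 and 962 normalized reads in NUR77 libraries and 955, 997 and 928 in GFP libraries, with a 95% interval of the log2 fold change of -0.08 to 0.15. Ndufs1, the large iron-sulfur subunit of the N module, had 1947, 1872 and 1776 in NUR77 libraries and 1703, 1800 and 1717 in GFP libraries, with an interval of -0.01 to 0.21. The groups overlapped in both genes, and Ndufs1 passed the threshold without NUR77 replicate 3 (0.13). Ndufs3, a Q module subunit, had 462, 477 and 453 normalized reads in NUR77 libraries and 436, 419 and 426 in GFP libraries. Its groups did not overlap, yet it was not called (log2 fold change 0.12, limma adjusted p = 0.097). Ndufs7, whose iron-sulfur cluster hands electrons to ubiquinone, had 429, 543 and 537 normalized reads in NUR77 libraries and 459, 445 and 478 in GFP libraries. NUR77 replicate 1 lay below all 3 GFP libraries and the other NUR77 libraries lay above them. Without NUR77 replicate 1, its log2 fold change of 0.12 became 0.23 and passed the threshold.

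**Figure D2:**
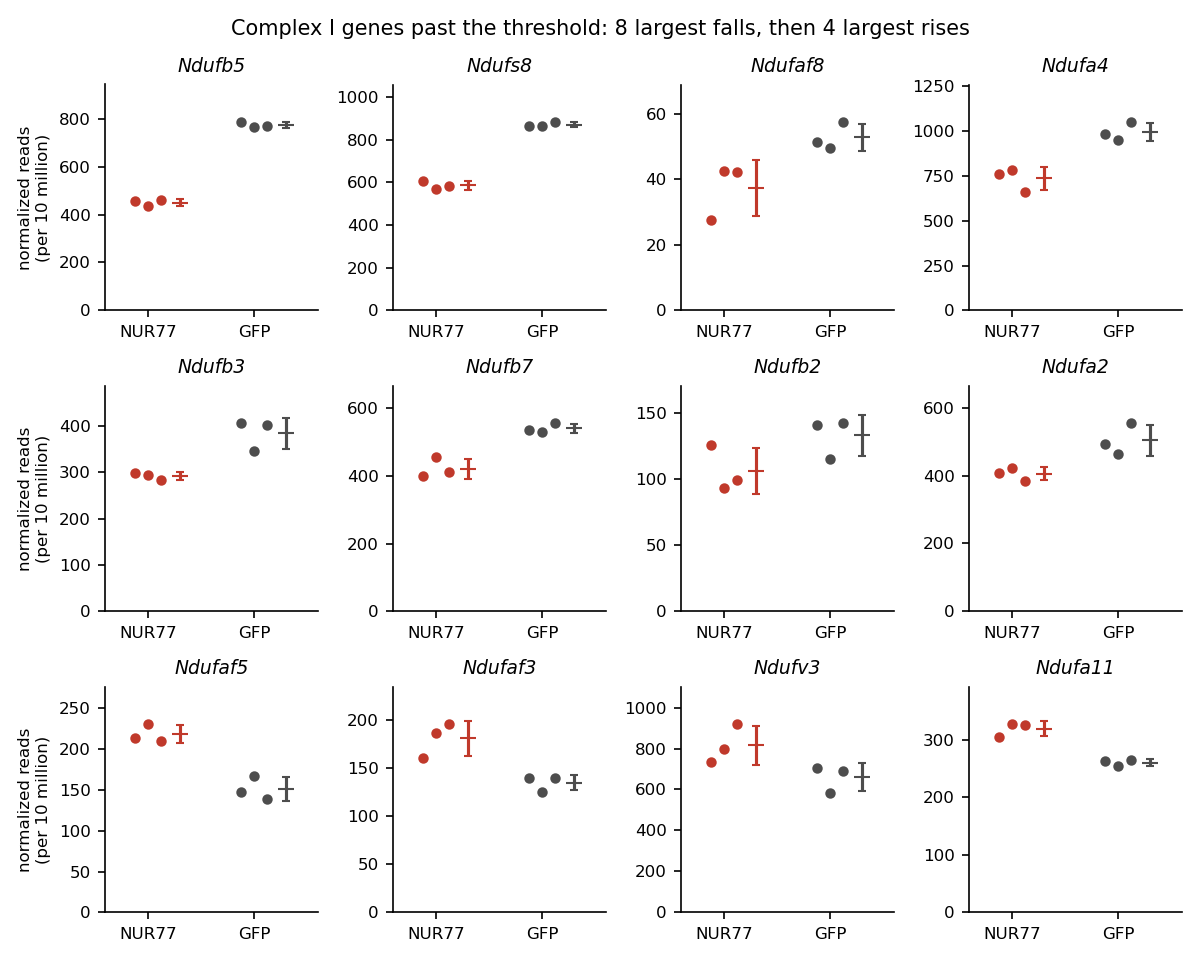
Normalized reads (vertical axis, from 0) of the 12 members with the 8 largest falls and the 4 largest rises past the threshold, with 1 point per library and the mean and SD beside them (NUR77 red, GFP grey, n = 3 each). Only the panel of Ndufb2 shows overlapping groups, where NUR77 replicate 1 lies at 126 and GFP replicate 2 at 116.

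Of the 29 accessory subunits, 11 fell (37.9%, against 28.3% of all tested genes) and 2 rose (6.90% against 38.4%), and the membrane arm held 9 of the 11 falls. A negative log2 fold change was found in 24 of 29 (median -0.13), against 4985 of all 11201 tested genes. In the distal membrane module 5 of 10 fell and none rose (median -0.21). In the proximal membrane module 4 of 9 fell and 1 rose (median -0.14). In the N module 2 of 7 fell (28.6%, near the 28.3% of all tested genes) and 1 rose, neither of the 2 accessory subunits of the Q module was called, and the acyl carrier protein Ndufab1 was not called. Against 28.3% of all tested genes that fell and 38.4% that rose, these are counts of 10 genes or fewer, and the differences between modules were not tested.

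Ndufb5, a distal membrane subunit (chromosome 3, 32736990 to 32751566, plus strand), had the largest difference of all members. It had 455, 434 and 461 normalized reads in NUR77 libraries, against 785, 763 and 771 in GFP libraries. The groups were well separated, at 450 ± 14.1 and 773 ± 11.1 (SD, n = 3 each), with a log2 fold change of -0.78 (SE 0.06, limma adjusted p = 2.9e-09). Other distal membrane subunits fell less. Ndufb3 had 299, 295 and 283 normalized reads in NUR77 libraries, against 406, 346 and 402 in GFP libraries (log2 fold change -0.39, SE 0.08, limma adjusted p = 0.00025). Ndufb7, which lies on the intermembrane-space side, had 400, 456 and 411 in NUR77 libraries, against 536, 531 and 556 in GFP libraries (-0.36, SE 0.07, adjusted p = 0.00014). In both genes every NUR77 library was below every GFP library. Ndufb4 also fell (-0.29, limma adjusted p = 0.0041), and a copy of it, Ndufb4c, makes its count uncertain. Ndufb2 had 126, 93.4 and 99.4 normalized reads in NUR77 libraries and 141, 116 and 142 in GFP libraries, and these overlapped. Its call (-0.33, limma adjusted p = 0.031) held in 11 of 16 alternatives, over which the adjusted p ran between 0.0047 and 0.14, and it was lost without any of NUR77 replicates 2 and 3 and GFP replicates 1 and 3. An annotated gene overlaps exons of Ndufb2 on the same strand, so its reads are uncertain, as are those of Ndufb8 and Ndufb9.

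Outside the distal module, Ndufa2, a small N module subunit with a thioredoxin-like fold, had 407, 423 and 385 normalized reads in NUR77 libraries, against 494, 463 and 554 in GFP libraries. The groups did not overlap (log2 fold change -0.31, SE 0.07, limma adjusted p = 0.0013). An annotated gene overlaps exons of Ndufa2 on the opposite strand, so its reads are uncertain. The proximal membrane subunits Ndufa1, Ndufs5, Ndufa10 and Ndufc1 fell by 0.26, 0.24, 0.19 and 0.20 on the log2 scale. For Ndufc1 the call was lost without NUR77 replicate 3, GFP replicate 1 or GFP replicate 3 (adjusted p 0.0038 to 0.095 over the 16 alternatives). Ndufa7, of the N module, lay at the threshold (-0.19, adjusted p = 0.0497) with overlapping groups, 399 to 482 normalized reads in NUR77 libraries and 461 to 553 in GFP libraries. It was called in 8 of 16 alternatives, with an adjusted p between 0.0071 and 0.27, and was lost without NUR77 replicates 1 or 2 and GFP replicates 1 or 3. The 16 uncalled accessory subunits had log2 fold changes between -0.14 (Ndufb6) and 0.11 (Ndufa12). Just outside the threshold were Ndufa8 (adjusted p = 0.051) and Ndufb9 (0.064). Leaving out 1 library added falls among them: Ndufa5 and Ndufb9 without NUR77 replicate 1, Ndufa6 without NUR77 replicate 3, Ndufa9 without GFP replicate 2, and Ndufa8 without NUR77 replicate 2 or GFP replicate 1.

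The accessory rises were Ndufa11 and Ndufv3. Ndufa11, a membrane subunit at the junction with other respiratory complexes, had 304, 327 and 325 normalized reads in NUR77 libraries, against 262, 254 and 265 in GFP libraries. The groups did not overlap, at 319 ± 12.5 and 260 ± 5.78 (SD, n = 3 each), with a log2 fold change of 0.29 (SE 0.07, limma adjusted p = 0.0018). Ndufv3, a small subunit bound near the flavin site of the N module, had 732, 796 and 919 normalized reads in NUR77 libraries, against 707, 584 and 691 in GFP libraries. The groups did not overlap, though NUR77 replicate 1 lay close to GFP replicate 1 (0.30, SE 0.09, limma adjusted p = 0.0087).

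Of the 8 assembly factors, 4 rose (50%, against 38.4% of all tested genes) and 1 fell (12.5% against 28.3%). The share called, 62.5%, was near the 66.7% of all tested genes. Under each of the 3 other scalings, 2 of the rises (Ndufaf1 and Ndufaf7) were lost. A positive log2 fold change was found in 6 of 8 (median 0.17), against 6216 of all 11201 tested genes (median 0.06). Ndufaf5, an enzyme that hydroxylates an arginine of Ndufs7 (chromosome 2, 140170649 to 140203689, plus strand), had 213, 231 and 210 normalized reads in NUR77 libraries, against 147, 167 and 139 in GFP libraries. All NUR77 libraries were above all GFP libraries (log2 fold change 0.53, SE 0.09, limma adjusted p = 9.1e-05). Ndufaf3, which works with Ndufaf4 on early Q module intermediates, had 161, 186 and 196 normalized reads in NUR77 libraries, against 139, 126 and 140 in GFP libraries (0.42, SE 0.10, limma adjusted p = 0.0015). Its groups did not overlap, while those of Ndufaf4 differed by less (0.14, adjusted p = 0.069, groups not overlapping). Exons of Ndufaf3 overlap an annotated gene on the opposite strand, so its reads are uncertain. Ndufaf8, a small protein that binds NDUFAF5 in human cells, went the other way. It had 27.7, 42.5 and 42.2 normalized reads in NUR77 libraries, against 51.6, 49.6 and 57.5 in GFP libraries (-0.51, SE 0.18, limma adjusted p = 0.02). Every NUR77 library lay below every GFP library, but NUR77 replicate 1 lay far below the other NUR77 libraries. Without it the log2 fold change was -0.31 (adjusted p = 0.095) and without GFP replicate 3 it was -0.45 (adjusted p = 0.084), where the adjusted p over the 15 alternatives that tested it ran between 0.0083 and 0.095.

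Ndufaf1, a chaperone of the early membrane arm, had 239, 235 and 230 normalized reads in NUR77 libraries, against 222, 204 and 182 in GFP libraries, with no overlap (0.22, limma adjusted p = 0.036). It was called in 8 of 16 alternatives (adjusted p 0.015 to 0.21): the 3 other scalings ended the call, as did leaving out NUR77 replicates 1 or 2 or GFP replicates 2 or 3. Ndufaf7, an arginine methyltransferase, had 296, 286 and 283 in NUR77 libraries, against 263, 249 and 236 in GFP libraries (0.21, limma adjusted p = 0.021). Its call held in 12 of 16 alternatives (adjusted p 0.017 to 0.12) and was lost under the 3 other scalings and without GFP replicate 3. Ndufaf6 (0.11) and Ndufaf2 (-0.06) were not called. In all, 15 of the 21 called members, 5 rises and 10 falls, passed the threshold in each of the 16 alternatives.

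Ndufa4 is described apart, because its product sits in complex IV. It had 763, 784 and 661 normalized reads in NUR77 libraries, against 984, 950 and 1050 in GFP libraries. The groups did not overlap, at 736 ± 65.7 and 995 ± 50.8 (SD, n = 3 each), with a log2 fold change of -0.44 (SE 0.07, limma adjusted p = 2.3e-05).

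Other genes of the pathway were counted from lists chosen by function. Of 13 other assembly factors tested, 5 rose (38.5%, against 38.4% of all tested genes) and 2 fell (15.4% against 28.3%), with a median of 0.07 against 0.06 over all tested genes. Ecsit, a partner of Ndufaf1 in the intermediate that builds the membrane arm, had 422, 506 and 477 normalized reads in NUR77 libraries, against 313, 295 and 321 in GFP libraries (0.59, limma adjusted p = 2.8e-06). Acad9, another partner of Ndufaf1, had 664, 662 and 625 in NUR77 libraries, against 450, 523 and 489 in GFP libraries (0.42, adjusted p = 2.9e-05). In both, no NUR77 library reached down to a GFP library. Tmem126b (0.003) and Tmem186 (-0.006), also listed for membrane arm assembly, were not called. Tmem70 (0.40), Aifm1 (0.28) and Timmdc1 (0.20) also rose, the last of them only in 9 of 16 alternatives, and Lyrm2 fell (-0.23) in 9 of 16. Timmdc1 was lost without NUR77 replicates 1 or 3 or GFP replicates 1 or 3, and Lyrm2 when any 1 library other than NUR77 replicate 1 was left out. Dmac1, a factor for the distal membrane module, had 113, 130 and 100 normalized reads in NUR77 libraries, against 175, 171 and 182 in GFP libraries (-0.63, limma adjusted p = 6.1e-05). Dmac2 (0.02) and Foxred1 (-0.12), also listed for membrane arm assembly, were not called. Several distal accessory subunits fell as well, and a link between them and Dmac1 was not tested.

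Of the 6 complex I subunits of mitochondrial DNA that were tested, 5 fell and 1 rose (median -0.88). The falls were 83.3%, against 28.3% of all tested genes, and the rise was 16.7% against 38.4%. Read counts of these genes are uncertain because nuclear copies of mitochondrial sequence exist. mt-Nd1 had 20828, 20318 and 18357 normalized reads in NUR77 libraries, against 40690, 44649 and 41552 in GFP libraries (-1.09, limma adjusted p = 1.4e-11). mt-Nd6, encoded on the other strand than the rest, had 1222, 1198 and 1349 in NUR77 libraries, against 914, 898 and 872 in GFP libraries (0.49, adjusted p = 1e-06). Its end overlaps that of mt-Nd5 on the opposite strand, and whether reads were counted by strand is not known. How selection for polyadenylated RNA acted on each mitochondrial transcript was not tested. The fall of mt-Nd3 rests on 3 to 9 reads per NUR77 library and 22 to 33 per GFP library. Among 7 tested regulators of nuclear respiratory genes, 4 were called (57.1%, against 66.7% of all tested genes), all of them rises: Gabpb1 (0.33), Yy1 (0.31), Pprc1 (0.29) and Esrra (0.26). The call of Esrra was lost under TMM scaling and without NUR77 replicate 2 (adjusted p 0.0022 to 0.073 over the 16 alternatives). The coactivator Ppargc1a fell under the filter and was not tested. It had no read in any NUR77 library and 17.4, 16.9 and 18.3 normalized reads in GFP libraries, which is at least 22.3-fold lower with a limit of 3 reads over the NUR77 group.

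Levels per length ordered the members within each line. Per kb of merged exons, the medians were 455 normalized reads in NUR77 cells and 419 in GFP cells for core subunits, 329 and 339 for accessory subunits, and 93.9 and 78.3 for assembly factors. Assembly factor transcripts were thus well below subunit transcripts in both lines. Ndufa2 had 708 ± 33.2 normalized reads per kb in NUR77 cells and 881 ± 81.4 in GFP cells (SD, n = 3 each), the highest mean of the 45 in GFP cells and rank 5 in NUR77 cells. Ndufs8 ranked 14 in NUR77 cells and 8 in GFP cells, and Ndufb5 ranked 39 and 33. The lowest was Ndufb2, with 18.9 ± 3.07 in NUR77 cells and 23.7 ± 2.72 in GFP cells. That rank rests on long annotated lengths, 5628 bases of merged exons and 4371 of principal transcript, and on reads that are uncertain as said above. Neighbours in this order often did not differ beyond their spread. With the length of the principal transcript, chosen after the data were seen, the core median lay lower in NUR77 cells (584) than in GFP cells (654), so its direction between the lines rests on the length used. Core subunits had the highest class median and assembly factors the lowest in both lines with either length. Single ranks moved more: Ndufb8, whose merged exons span 3146 bases and whose principal transcript spans 680, took rank 1 in NUR77 cells instead of 24. In NUR77 and GFP cells, Ndufa2 then ranked 12 and 8, Ndufs8 19 and 10, and Ndufb5 29 and 15. The ranks given above thus rest on the length used.

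**Figure D3:**
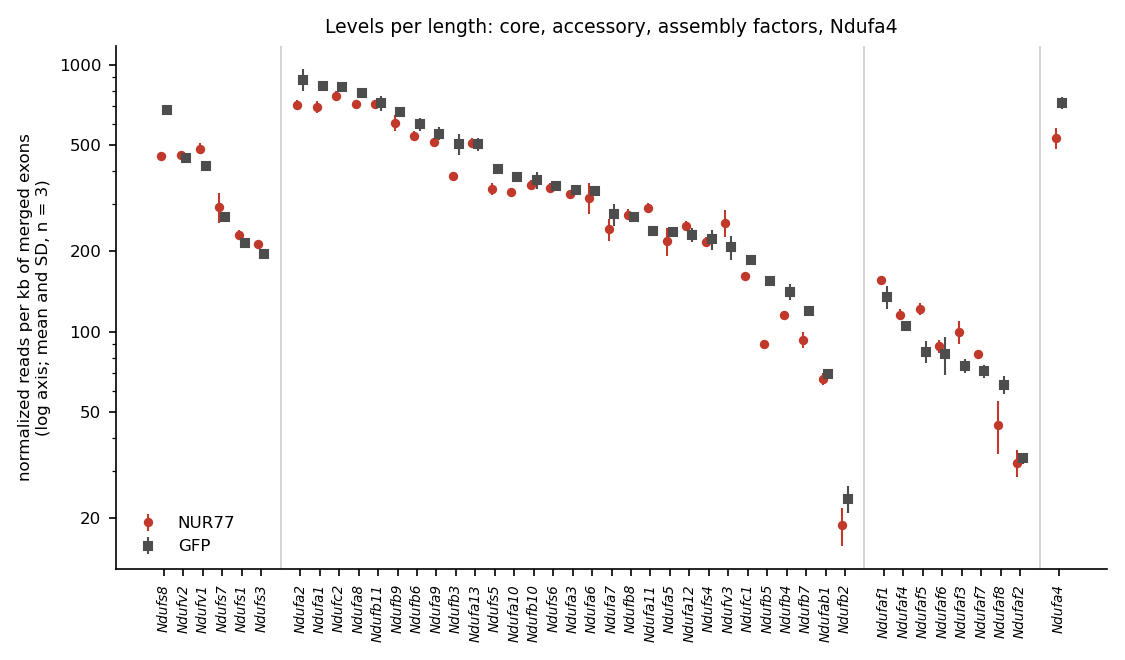
Normalized reads per kb of merged exons (log axis) for 44 of the 45 members, as mean and SD of 3 libraries (NUR77 red circles, GFP grey squares), with core subunits, accessory subunits, assembly factors and Ndufa4 from left to right and sorted by the GFP level. Assembly factors lie below most subunits, and the 2 symbols are farthest apart for Ndufb5 and Ndufs8.

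The 4 members called with a log2 fold change of at least 0.5 in size were set beside their neighbours along the chromosome. These were the 5 tested genes on each side. The neighbours spanned 7120 kb around Ndufaf5, 3540 kb around Ndufb5, 465 kb around Ndufaf8 and 428 kb around Ndufs8. Around Ndufb5, 8 of 10 neighbours fell and 2 rose (median -0.48), the falls including Ttc14 (-1.002), Pik3ca (-0.86) and Dnajc19 (-0.76). Around Ndufaf8, 6 of 10 fell and 1 rose (median -0.45). Around Ndufaf5, 5 of 10 rose and 1 fell (median 0.23). Over all tested genes, 38.4% rose and 28.3% fell, and these counts of 10 genes are a description only. Around Ndufs8, 3 of 10 fell and 4 rose (median 0.02). The tested genes directly on either side of Ndufs8 both fell. They are Tcirg1, a subunit of the vacuolar proton pump, 1.73 kb away (log2 fold change -1.64), and Aldh3b1, which lies nearer (-0.35). The remaining fall was Unc93b1 (-0.34), the gene after Aldh3b1.

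**Figure D4:**
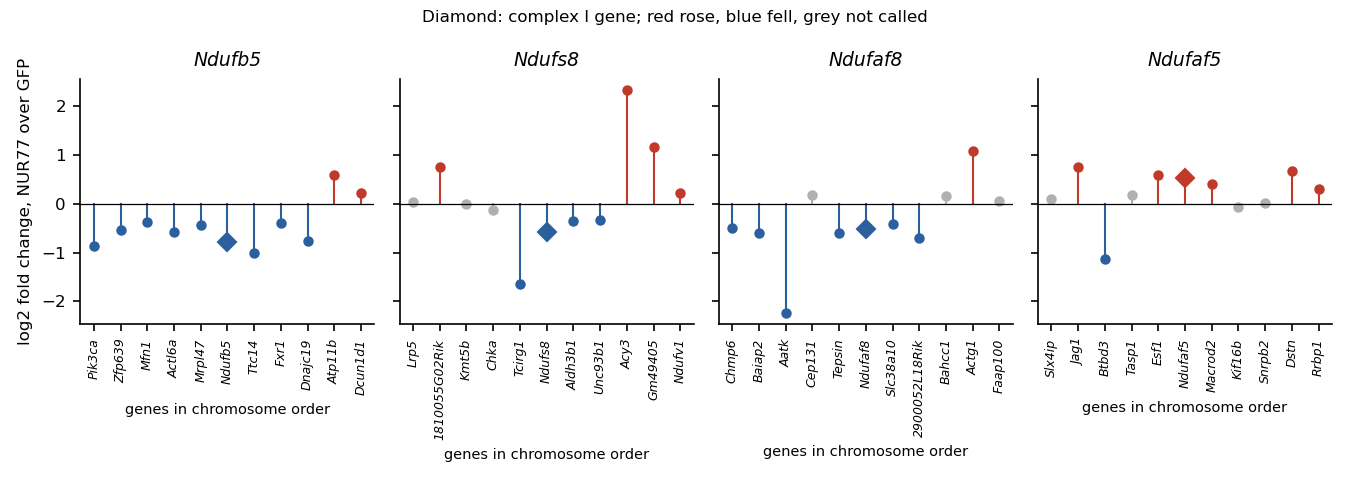
Log2 fold change (NUR77 over GFP, vertical axis) of Ndufb5, Ndufs8, Ndufaf8 and Ndufaf5 (diamonds) and of the 5 tested genes on either side (circles) in chromosome order, with red for rose, blue for fell and grey for not called. Around Ndufb5, 8 of 10 neighbours are blue, while the neighbours of Ndufs8 are mixed.

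Many members start beside another gene. A tested protein-coding gene on the opposite strand began within 1000 bases of the start of 17 of 45 members (37.8%), against 15.8% of the 10657 tested protein-coding genes, a comparison chosen after the data were seen. In 5 of these pairs both genes were called, and in all 5 they moved in the same direction. How often divergent pairs of other genes do so was not counted, so this is a description only. Ndufaf5 (0.53) paired with Esf1 (0.59), a ribosome biogenesis gene, Ndufaf7 (0.21) with Cebpz (0.64) and Ndufa11 (0.29) with Vmac (0.41), whose own call was lost in 5 of 16 alternatives (without NUR77 replicates 2 or 3 or GFP replicate 2 among them). Ndufb5 (-0.78) paired with Mrpl47 (-0.43), a mitochondrial ribosomal protein gene, and Ndufaf8 (-0.51) with Tepsin (-0.59). Esf1, Mrpl47 and Tepsin are also among the chromosome neighbours counted above. Exons of Ndufb5 and Mrpl47, and of Ndufa11 and Vmac, overlap on opposite strands, and the sources used here do not say whether reads were counted by strand, so reads of these partners cannot be told apart. The same limit holds for all 16 members whose exons overlap an annotated gene on the opposite strand. Ndufa2, Ndufaf3 and Ndufb2 are further called members among them. In other pairs 1 gene was called alone, such as Mrpl36 (-0.62) beside Ndufs6 (-0.02), Tatdn1 (0.40) beside Ndufb9 (-0.13), and Ndufa4 (-0.44) beside Phf14 (0.12).

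**Figure D5:**
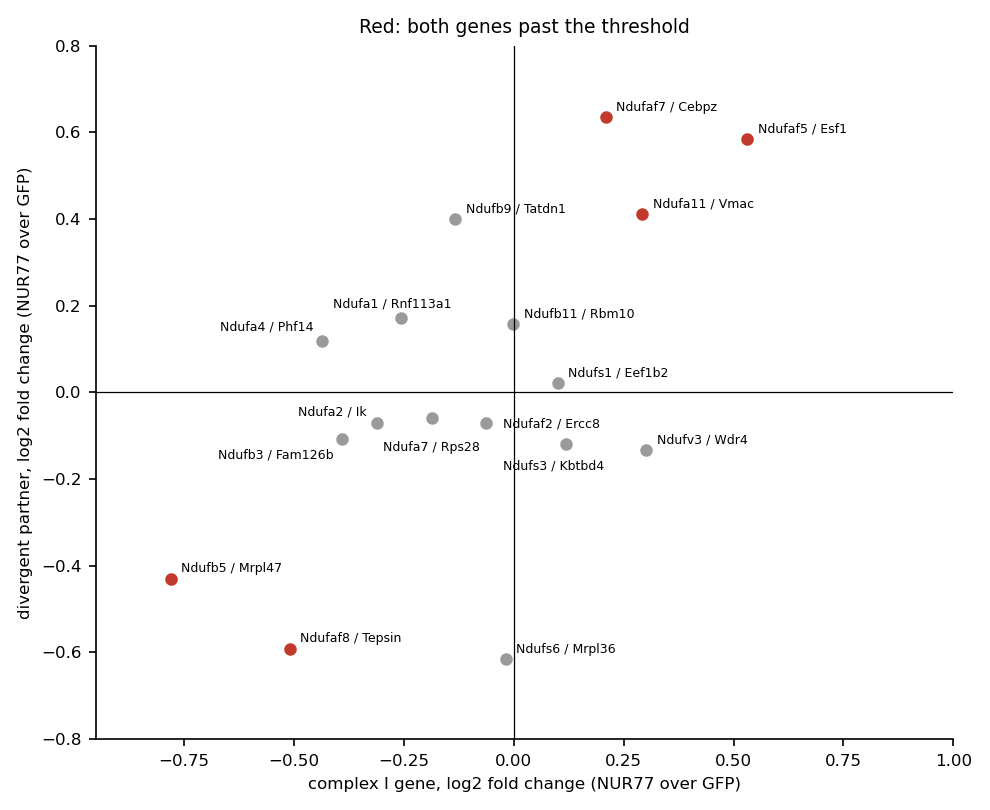
Log2 fold change (NUR77 over GFP) of complex I genes (horizontal axis) and of the tested protein-coding gene that starts within 1000 bases on the opposite strand (vertical axis), with 1 point per pair. The 5 red points, where both genes passed the threshold, lie at the lower left or the upper right.

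Promoters were examined for 40 of the 45 members that have an entry in the RefSeq promoter table (GRCm38.p6), as the 250 bases before the annotated start and on both strands. The NGFI-B response element AAAGGTCA, the monomer site to which NUR77 is known to bind, was in none of the 40, against 1.55% of 27025 gene promoters. The ERR element TCAAGGTCA, which shares its last letters with that site, was in none, against 0.422% of all promoters. The YY1 core AAGATGGC was in none, against 1.83%. The ETS core CCGGAAG, bound by GABP, was in 5 of 40 (12.5%: Ndufaf1, Ndufaf8, Ndufb6, Ndufb7 and Ndufs3), against 7.83% of all promoters. The NRF1 core GCATGCGC was in 4 (10%: Ndufa11, Ndufa6, Ndufa8 and Ndufaf4), against 2.56%. A missing match says only that these letters are not in this window. The exon-free stretches before 3 members are shown, with Ndufs8 as the core subunit that fell. For Ndufaf5 they are the 81 bases between the start of Esf1, on the opposite strand, and the RefSeq start of Ndufaf5. That RefSeq start lies slightly before the GENCODE start given above. In the promoter of Ndufa11, capitals mark the NRF1 core read on both strands. The 3 stretches lie at chr19:3912775-3913024 (minus strand), chr2:140170565-140170645 (plus strand) and chr17:56717686-56717761 (plus strand) of GRCm38.p6.
Ndufs8: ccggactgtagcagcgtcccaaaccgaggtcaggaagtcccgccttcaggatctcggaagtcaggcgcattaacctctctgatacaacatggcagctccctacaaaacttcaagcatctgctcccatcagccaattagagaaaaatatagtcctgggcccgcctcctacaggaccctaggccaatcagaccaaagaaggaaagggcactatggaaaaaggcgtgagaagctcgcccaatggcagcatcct
Ndufaf5: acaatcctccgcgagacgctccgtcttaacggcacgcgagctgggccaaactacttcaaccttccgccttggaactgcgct
Ndufa11: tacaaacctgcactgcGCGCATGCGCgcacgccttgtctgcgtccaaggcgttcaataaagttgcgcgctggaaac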

How the data were processed

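Polyadenylated RNA of 6 dishes was sequenced from strand-specific libraries, per the labels' protocols. The authors deposited log2 values for each library, unpooled, which from the values themselves are log2(normalized reads + 1) with 10000000 normalized reads per library. Whole reads were recovered for 100% of the values within 0.1 read. TopHat2 2.1, HTSeq, DESeq2 and mm10 are named in the submitters' processing notes. Their roles and the gene annotation used for counting were not given in the sources used here. Equal totals let a few abundant genes shift all others. Under TMM scaling the median log2 fold change moved from 0.06 to -0.01 over all tested genes. Over members it moved from -0.05 to -0.13. The class sums and medians above are under the deposited scaling only.

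Identifiers were named with GENCODE M21 (22872 of 23154). Genes with a mean of 10 or more were tested with limma 3.58.1 in R 4.3.3 (trend, robust moderation, 2 groups of 3, no covariates) on log2(normalized reads + 1), and p-values were adjusted by Benjamini-Hochberg over all 11201 genes. Fold changes on this scale understate low genes. Because each group is 1 line, p-values reflect only how its dishes varied. The fit was tested on simulated counts in which a far smaller share of genes changed than was called here. That test therefore does not vouch for the calls in these data. Limits from counts of 0 cover counting error only, as PCR copies were not told from separate molecules. Members and lists were chosen with earlier results of these data known. The values of 1 core subunit and 1 B cell marker are not reported here, though both enter the counts and sums. Any other kept member may be named, with values by library for the 4 largest rises, the 8 largest falls, the core subunits and the called assembly factors; other genes come from the lists and neighbours, and divergent partners were added after the data were seen. Alternatives were 2 pseudocounts, 2 filters, 3 scalings, 2 variance models, a replicate block and each library left out.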

Additional observations from a re-analysis of the deposited data

How the results depend on the processing

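Over the 16 alternatives, 6680 to 8429 genes were called, 5 to 8 members rose and 10 to 19 fell. Leaving out 1 library at a time gave 5 to 8 rises and 10 to 15 falls, with the fewest of both without GFP replicate 3. With the replicate block 7 members rose and 15 fell, among 7585 genes called; Ndufa8 was gained. Same-numbered libraries correlated at 0.002, 0.114 and 0.045 in their deviations from the group means, and only NUR77 replicate 2 correlated best with its own number, so the numbers were not taken as pairs.

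No called member changed sign. Signs turned 23 times, always between values that were not called: under TMM, median-of-ratios and upper-quartile scaling for Ndufv2 (-0.0397, -0.0228 and -0.0282), Ndufb8 (-0.0458, -0.0290 and -0.0343) and Ndufa13 (-0.0534, -0.0366 and -0.0419), and in limma-voom for Ndufb11 (0.000950). With 1 library left out, the log2 fold change ran from -0.0116 to 0.0648 for Ndufa13, -0.187 to 0.00174 for Ndufa6, -0.148 to 0.0147 for Ndufaf2, -0.0121 to 0.226 for Ndufaf6, -0.0894 to 0.00654 for Ndufb10, -0.0538 to 0.0384 for Ndufb11, -0.00946 to 0.0545 for Ndufb8, -0.104 to 0.0114 for Ndufs4 and -0.0410 to 0.0198 for Ndufs6. Why these moved was not tested.

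Per kb of principal transcript, an alternative chosen after the data were seen, the median level was 584 normalized reads in NUR77 cells and 654 in GFP cells for core subunits, 549 and 615 for accessory subunits, and 133 and 121 for assembly factors; the shorter lengths raise all of them, and the core median then lies lower in NUR77 cells instead of higher. Depth limits Ndufaf8 most: 1 read is worth between 0.6278 and 0.8929 normalized reads.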
